A study of Homo sapiens with 3 samples.

Results

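The genes described here are 38 genes of autophagy and the lysosome, measured in A549, a cell line established from a human lung adenocarcinoma, after exposure to cordycepin or cordyceps. They were chosen by name as core parts of the pathway, and each of the 38 had at least 1 probe among the 22435 named genes on the array. RNA from cells kept for 48 h with 0.1% DMSO as the vehicle control, with 60 μg/mL cordycepin, the adenosine analog 3′-deoxyadenosine, or with 100 μg/mL cordyceps was hybridized to 1 single-colour Agilent whole-genome array per condition. According to the labels, the culture medium of every group held 10% fetal bovine serum, antibiotics, zinc sulfate at 16.7 μM, troglitazone at 10 μM and nicotinamide at 10 mM, so the control cells received these agents too. The labels do not describe the cordyceps preparation further. With 1 array per condition there was no replicate error, no test was run, and any difference between the cultures other than the agent cannot be told apart from the treatment. A lower level in such a culture can likewise reflect fewer cells that express the gene or less RNA per cell, which cannot be told apart. The doses of the agents differ, and both are read against the same control array, so their values stand side by side without a comparison between them.

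Autophagy encloses cytoplasm in a double membrane and delivers it to the lysosome, where acid hydrolases degrade it. The ULK1 kinase complex starts the process, a PI3-kinase complex built on PIK3C3 and BECN1 marks the membrane with PI3P, and a ubiquitin-like conjugation system attaches the ATG8 proteins, which include LC3 and the GABARAP proteins, to the growing membrane. Receptors such as SQSTM1 bind cargo and ATG8 proteins at the same time. The transcription factors TFEB and TFE3 bind E-boxes in the promoters of many lysosome and autophagy genes, and the FOXO factors also act on genes of this pathway. Messenger RNA levels do not measure the flow through the pathway, which is set largely by protein modification and turnover.

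E-boxes were looked for in the promoters, because they are the element through which TFEB and TFE3 act. RefSeq promoter sequences of 250 bases before to 50 bases after the annotated start (GRCh38.p14) were matched for 33 of the 38 genes. The core E-box CACGTG, which reads the same on both strands, was present in 4 of the 33 (12.1%), compared with 7.43% of 27305 promoters. These 4 sequences are shown 5′ to 3′ on the gene's strand, with the core E-box in capitals.
LAMP1 (chr13:113296989-113297288, strand +): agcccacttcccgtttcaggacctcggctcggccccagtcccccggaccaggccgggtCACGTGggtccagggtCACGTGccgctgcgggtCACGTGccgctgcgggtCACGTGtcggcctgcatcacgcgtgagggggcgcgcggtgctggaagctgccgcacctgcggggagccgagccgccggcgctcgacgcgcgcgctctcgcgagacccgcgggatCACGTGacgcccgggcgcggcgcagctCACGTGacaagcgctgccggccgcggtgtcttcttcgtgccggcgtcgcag
ATG3 (chr3:112561913-112562212, strand -): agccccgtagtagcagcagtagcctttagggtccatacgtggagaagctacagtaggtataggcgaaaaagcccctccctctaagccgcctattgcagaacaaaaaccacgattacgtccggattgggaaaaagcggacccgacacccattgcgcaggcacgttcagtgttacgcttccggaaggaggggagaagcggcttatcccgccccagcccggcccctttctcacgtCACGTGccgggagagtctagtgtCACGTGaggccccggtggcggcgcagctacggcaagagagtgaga
CTSD (chr11:1763878-1764177, strand -): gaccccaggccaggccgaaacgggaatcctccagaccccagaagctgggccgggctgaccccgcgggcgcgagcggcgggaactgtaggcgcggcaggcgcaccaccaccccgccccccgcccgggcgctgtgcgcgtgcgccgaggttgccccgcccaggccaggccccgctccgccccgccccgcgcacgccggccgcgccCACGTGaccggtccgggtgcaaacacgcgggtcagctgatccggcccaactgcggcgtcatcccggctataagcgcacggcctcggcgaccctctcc
ATG14 (chr14:55411781-55412080, strand -): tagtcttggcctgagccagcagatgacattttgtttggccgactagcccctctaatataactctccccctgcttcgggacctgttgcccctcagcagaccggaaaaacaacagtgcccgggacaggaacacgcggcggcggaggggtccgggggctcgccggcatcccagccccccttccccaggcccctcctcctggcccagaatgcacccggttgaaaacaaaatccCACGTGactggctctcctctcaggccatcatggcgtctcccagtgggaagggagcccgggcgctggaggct
The LAMP1 window holds 6 core E-boxes, that of ATG3 holds 2, and those of CTSD and ATG14 hold 1 each. In LAMP1 and ATG3 some of these lie within the longer palindrome TCACGTGA, which 2 of the 33 windows (6.06%) and 1.04% of all promoters contained. The FOXO element GTAAACA was found on either strand in 1 of the 33 windows, that of CTSL (3.03%, and 3.41% of all promoters). TGANTCA, a site of AP-1 factors, was found in 1 of the 33 (7.76% of all promoters), and TGACNNNGC, a site of NRF2, in 5 of the 33 (13.6% of all promoters), both searched on either strand. A match of letters is a description of the window and does not show that a factor binds there.

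All 38 genes were detected in the control cells. A probe counted as detected when it was well above background by the scanner software, and the brightest probe of a gene over the arrays stood for the gene. By that probe 38 of the 38 genes were detected on the control array, and 35 lay above the array's 75th percentile. On the cordycepin and cordyceps arrays 37 were detected, with ATG14 as the exception on both. The 8 markers of A549 cells that were looked up, among them the keratin genes KRT8 and KRT18 and the aldo-keto reductase gene AKR1B10, were detected on every array. With cordycepin 4 of the 8 lay below the control, with a median log2 ratio of -0.02, and with cordyceps 7 of the 8 did, with a median of -0.49 and KRT19, another keratin gene, lowest at -1.25. Before scaling, the summed signal of the 8 was 814320 in the control, 620516 with cordycepin and 558614 with cordyceps. These sums are not corrected for the lower 75th percentile of the cordycepin array, given below. The part of the marker differences in the results below was not tested. Of the 11 blood, fibroblast and endothelial markers, 5 were detected on the control array and 3 on the cordyceps array, while CD3E, COL1A2, DCN, PDGFRB and PECAM1 were among those not detected on any. The detected ones were PTPRC, CD14 and COL1A1 on every array and VWF and CDH5 on the control and cordycepin arrays. CD14, a monocyte receptor that other cells can also express, gave the highest signal of these, 3387 in the control, 1559 with cordycepin and 2183 with cordyceps. Signals here and below are processed scanner intensities before scaling. The 75th percentile, by which each array was scaled, was 260.1 for the control, 224 for cordycepin and 260.2 for cordyceps, so an equal signal on the control and cordycepin arrays is a higher scaled level on the latter.

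**Figure D1:**
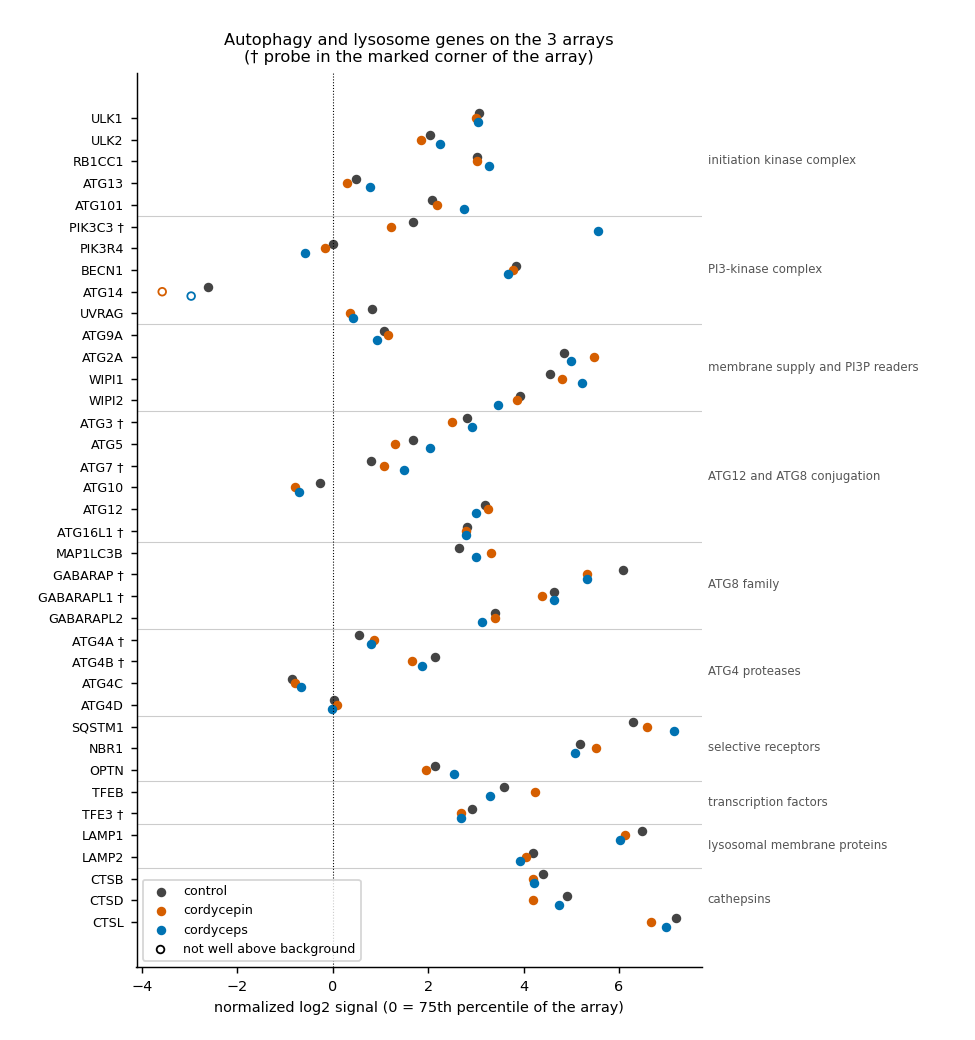
Normalized log2 signal of each of the 38 genes (horizontal axis, 0 is the 75th percentile of the array) on the control, cordycepin and cordyceps arrays, 1 array each, with genes grouped by role. For most genes the points of the 3 arrays lie close together, and PIK3C3 on the cordyceps array stands far to the right. Positions of different genes are not comparable, since probes differ in brightness.

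With cordycepin, none of the 38 genes differed from the control by 2-fold or more: 0 were higher and 0 were lower. Of the named genes detected on either array 5.95% were higher and 3.57% were lower by that threshold, or 3.74% and 7.41% with median scaling. Of the named genes detected on both arrays, as 37 of the 38 were, 3.92% were higher and 3.05% lower. The log2 ratios of the 37 genes measured on both arrays ran from -0.74 to 0.66, with a median of -0.07, beside a median of -0.05 over all named genes. Of these 37 genes, 15 lay above 0 and 22 below, while 54.7% of all named genes measured on both arrays lay below 0. At a threshold of 1.5-fold, 3 genes were higher (ATG2A, MAP1LC3B and TFEB; 13.3% of all named genes passed) and 3 were lower (GABARAP, CTSD and, by a bound, ATG14; 11.8% of all named genes). A spread between probes was taken from pairs of probes of one gene on the same arrays. It can include differences between transcripts, and it leaves out differences between cultures and between hybridizations. For cordycepin this SD was 0.37 per probe on the log2 scale over 3675 genes. Within it lay 26 of the 37 genes, beside 8737 of the 14600 named genes measured on both arrays.

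With cordyceps, 1 of the 38 genes was at least 2-fold higher and 0 were lower, beside 4.19% and 3.15% of the named genes, or 6.17% and 1.33% with median scaling. That gene was PIK3C3, whose probe lies in a corner of the array where more probes than elsewhere were raised on the cordyceps array. The log2 ratios of the 37 measured genes had a median of -0.04, beside -0.11 over all named genes, with 15 above 0 and 22 below. Of all named genes measured on both arrays, 61.4% lay below 0. At 1.5-fold, 5 genes were higher (PIK3C3, SQSTM1, ATG7, WIPI1 and ATG101; 8.3% of all named genes) and 2 were lower (GABARAP and PIK3R4; 12.5% of all named genes). The SD per probe was 0.36 over 3418 genes, or 0.28 over the 2246 genes with both probes outside the corner. Within 0.36 lay 24 of the 37 genes, beside 8272 of the 13889 named genes measured on both arrays.

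The corner of the cordyceps array touches 9 of the 38 genes. It comprises the spots above row 240 and column 82 of 384 rows and 164 columns, and it was marked from earlier results of these data. It holds 18.6% of the probes, and on the cordyceps array the scanner software marked the local background as an outlier for 11.2% of its spots, against 0 spots there with cordycepin and 0 in the control. By their brightest probe, PIK3C3, ATG3, ATG7, ATG16L1, GABARAP, GABARAPL1, ATG4A, ATG4B and TFE3 lie in it. In the corner 10.7% of the named genes were at least 2-fold higher with cordyceps and 3.18% lower, and outside it 2.66% were higher and 3.15% lower. Of the 29 genes outside the corner, 0 were at least 2-fold higher and 0 lower with cordyceps, and the log2 ratios of the 28 measured ones ran from -0.59 to 0.86.

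**Figure D2:**
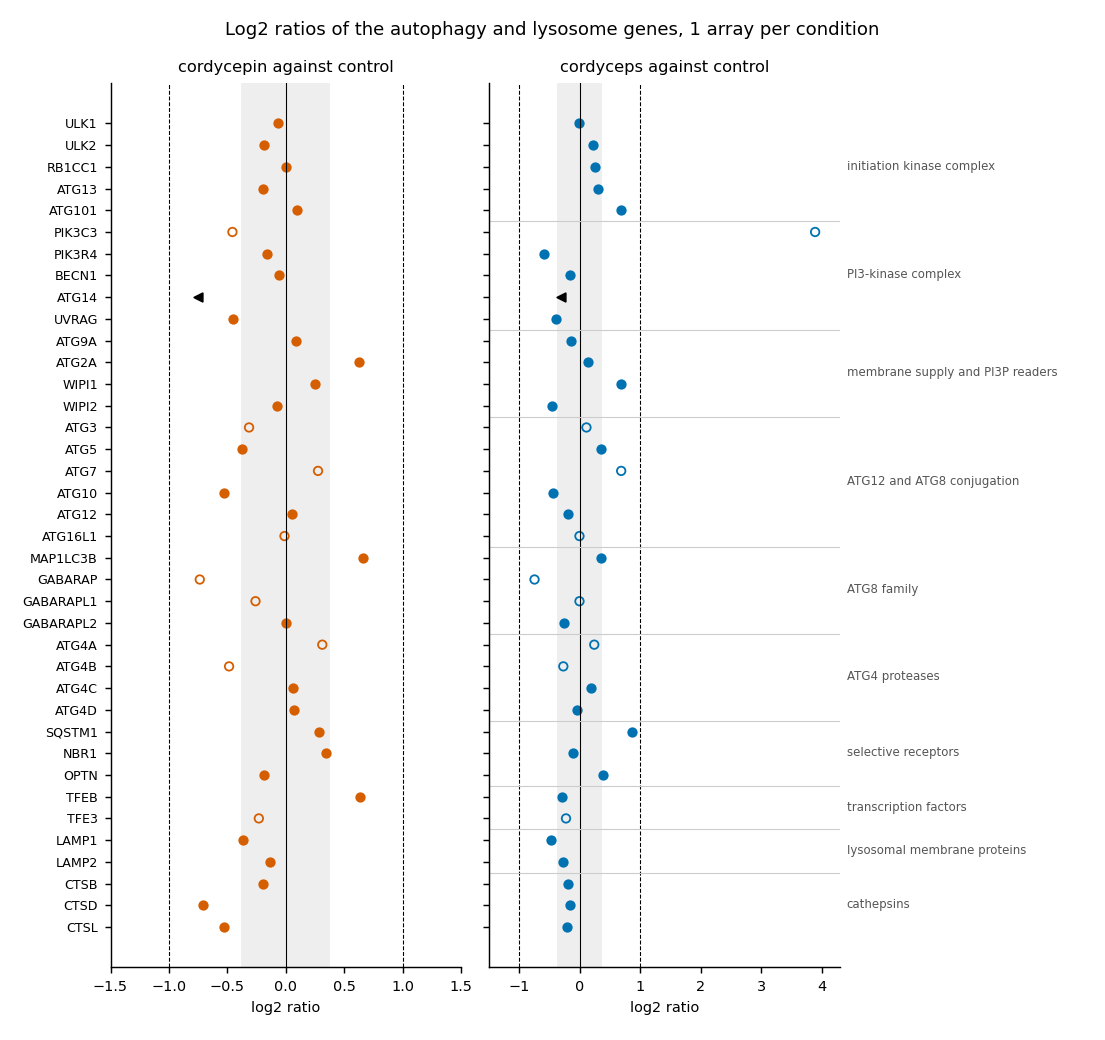
Log2 ratio of each of the 38 genes against control (horizontal axis, brightest probe) for cordycepin on the left and cordyceps on the right. Open circles are probes in the corner, black triangles are upper bounds for ATG14, grey bands are 1 SD of a single probe's ratio (0.37 and 0.36) and dashed lines mark 2-fold. PIK3C3 with cordyceps lies beyond the 2-fold lines, and all other points lie between them.

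The kinase complex that starts autophagy was close to the control level with cordycepin by its brightest probes. ULK1, its catalytic subunit, gave a signal of 2181 in control cells, 1798 with cordycepin and 2153 with cordyceps, and log2 ratios of -0.06 and -0.02. RB1CC1 (FIP200), the scaffold of the complex, gave 2106, 1818 and 2508, with log2 ratios of 0.00 and 0.25. By the brightest probe, all 5 genes of the complex lay within 0.20 log2 units of the control with cordycepin. ATG101, which stabilizes ATG13, gave 1103 in control cells, 1014 with cordycepin and 1760 with cordyceps, and its log2 ratio of 0.67 with cordyceps was the highest of this complex. ULK2, a paralog of ULK1, differed between its probes. With cordyceps the brightest gave 0.21 and the next brightest -1.04. With cordycepin they gave -0.19 and 0.11, and a further probe gave 0.66. ATG13, the adaptor between ULK1 and the rest of the complex, had log2 ratios of -0.20 and 0.30, and its other probe gave 0.05 and 0.42.

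The PI3-kinase complex held both the gene that reached 2-fold and the one that fell below detection. PIK3C3 (VPS34), the lipid kinase that makes PI3P, gave a signal of 832 in control cells, 523 with cordycepin and 12359 with cordyceps. Its log2 ratio was -0.46 with cordycepin and 3.89 with cordyceps, a 14.8-fold difference read from 1 spot of 1 probe. Among the 51 other spots within 6 rows and 6 columns of that spot whose probes were detected on both arrays, 20 were at least 2-fold higher with cordyceps and 1 with cordycepin, and the highest of these neighbours had a log2 ratio of 7.49 with cordyceps. The spot itself carried no outlier mark for its local background. PIK3R4 (VPS15), the regulatory partner of PIK3C3, lies outside the corner and gave 261, 200 and 173, with log2 ratios of -0.17 and -0.59. BECN1, the scaffold subunit, gave 3733, 3098 and 3334, with log2 ratios of -0.05 and -0.16. ATG14, which directs the complex to the forming autophagosome, had a control signal of 42.7 and was not well above background with cordycepin or cordyceps. It was at least 1.68-fold lower with cordycepin and at least 1.24-fold lower with cordyceps, and its low signal limits both values. UVRAG, the alternative partner of BECN1 in endosome and autophagosome maturation, had log2 ratios of -0.45 and -0.40. With cordycepin the 4 measured genes of the complex all lay below 0, with a median of -0.31, and under quantile normalization 3 of the 4 did. Of all named genes measured on both arrays, 54.7% lay below 0 with cordycepin, with a median of -0.05.

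Of the genes that supply membrane and read PI3P, ATG2A and WIPI1 were the furthest from the control by their brightest probes. ATG2A, a lipid transfer protein at the growing membrane, gave 7477 in control cells, 9959 with cordycepin and 8255 with cordyceps, and log2 ratios of 0.63 and 0.14. Its other probe gave 0.51 and 0.26, so both probes of ATG2A stood above the control on both arrays. WIPI1, a PI3P-binding protein of the autophagosome, gave 6108, 6279 and 9787, and log2 ratios of 0.25 and 0.68 from a single probe outside the corner. ATG9A, the membrane protein of the vesicles that seed the autophagosome, had log2 ratios of 0.09 and -0.14, and its other probe gave -0.24 and -0.10. WIPI2, which recruits ATG16L1 to PI3P, had log2 ratios of -0.07 and -0.47 by its brightest probe. The other WIPI2 probe, designed on another transcript, gave 592 in control cells, 249 with cordycepin and 582 with cordyceps, or log2 ratios of -1.03 and -0.02.

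The conjugation enzymes lay on both sides of the control. ATG7, the E1-like enzyme of both conjugation systems, gave 454, 474 and 729, with log2 ratios of 0.28 and 0.68 from a probe in the corner. Its other probe, outside the corner, gave 220, 147 and 220, with log2 ratios of -0.36 and 0.00, although its spot on the cordyceps array carried an outlier mark for the local background. The 2 probes of ATG7 therefore had opposite signs with cordycepin, and the higher value with cordyceps was not seen by the probe outside the corner. ATG10, the E2-like enzyme for ATG12, gave 216, 129 and 158, with log2 ratios of -0.53 and -0.45. ATG5, the target to which ATG12 is attached, gave log2 ratios of -0.38 and 0.36 by its brightest probe and -0.15 and -0.08 by the other, with opposite signs for cordyceps. ATG3, the E2-like enzyme for the ATG8 proteins, gave log2 ratios of -0.31 and 0.11. ATG12 was within 0.20 log2 units of the control on both arrays by its brightest probe.

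ATG16L1, which positions the conjugation complex on the membrane, had the widest distance between its probes with cordycepin, while with cordyceps that of ULK2 was the widest at 1.25 log2 units. By the brightest probe its signal was 1825 in the control, 1561 with cordycepin and 1817 with cordyceps, the last with an outlier mark for the local background, and log2 ratios of -0.01 with both agents. The other probe, which carries the same accession and lies outside the corner, gave 71.8, 469 and 46.8, and log2 ratios of 2.92 with cordycepin and -0.62 with cordyceps. Each of these probes was read from 1 spot per array, and no further probe of the gene was present.

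The ATG8 genes did not move together. MAP1LC3B, which encodes LC3B, gave a signal of 1639 in control cells, 2239 with cordycepin and 2082 with cordyceps, and log2 ratios of 0.66 and 0.34. Its other probe gave 817, 589 and 1408, and log2 ratios of -0.26 and 0.79. Both MAP1LC3B probes stood above the control with cordyceps, and they had opposite signs with cordycepin. GABARAP gave 17542 in control cells, 9080 with cordycepin and 10436 with cordyceps, or 1.67-fold and 1.68-fold lower. That value rests on 1 probe in the corner, whose spot carried an outlier mark for the local background on the cordyceps array. The neighbouring spots had a median log2 ratio of -0.11 over 77 spots with cordycepin and 0.03 over 78 with cordyceps, and 15 of the 78 were at least 2-fold higher with cordyceps. GABARAPL1 gave 6495, 4678 and 6470, with log2 ratios of -0.26 and -0.01. Its other probe, also in the corner, gave -0.05 and 0.61, so the probes of GABARAPL1 had opposite signs with cordyceps. GABARAPL2 gave 2735, 2362 and 2278, with log2 ratios of 0.00 and -0.26. MAP1LC3B and GABARAPL1 have near-identical copies in the genome (MAP1LC3B2 and GABARAPL3), and whether the probes separate them was not tested here.

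The ATG4 proteases, which trim the ATG8 proteins before they are attached and release them later, lay between -0.49 and 0.31 with cordycepin and between -0.27 and 0.24 with cordyceps by their brightest probes. The lowest value with cordycepin was that of ATG4B, the main protease for LC3, whose signals were 1153, 710 and 954. Its other probe gave -0.30 and -0.29, the same direction on both arrays. ATG4A and ATG4D, the other members of the family beside ATG4C, were measured by 1 probe each. The probes of ATG4C differed in sign on both arrays, at 0.06, 0.66 and -0.36 with cordycepin and at 0.18 and -0.30 with cordyceps for those detected on both arrays.

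Among the receptors, SQSTM1 (p62) had the highest ratio with cordyceps outside the corner by the brightest probe. It gave a signal of 20532 in control cells, 21502 with cordycepin and 37324 with cordyceps, with log2 ratios of 0.28 and 0.86, so the level was 1.82-fold higher with cordyceps. Of the 45 neighbouring spots, 1 was at least 2-fold higher with cordyceps and the median was -0.04. Median scaling of the arrays put SQSTM1 at 1.13 with cordyceps. NBR1, a receptor related in domain structure to SQSTM1, gave 9451, 10315 and 8748, with log2 ratios of 0.34 and -0.11. OPTN, a receptor in the clearance of mitochondria and bacteria, gave 1153, 876 and 1513, with log2 ratios of -0.18 and 0.39.

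The transcription factors of the pathway gave no common direction with cordycepin. With cordyceps all 4 probes lay below the control, as did 61.4% of the named genes measured on both arrays. TFEB gave a signal of 3141 in control cells, 4211 with cordycepin and 2569 with cordyceps by its brightest probe, with log2 ratios of 0.64 and -0.29. The other TFEB probe, designed on a different transcript, gave 2401, 1509 and 2123, with log2 ratios of -0.46 and -0.18. The probes of TFEB thus disagreed in sign with cordycepin, and both lay below the control with cordyceps. TFE3, a paralog of TFEB, gave 1972, 1449 and 1683, with log2 ratios of -0.23 with both agents, and its other probe, outside the corner, gave -0.32 and -0.17. Median scaling put the TFE3 value with cordyceps at 0.04 and the median of TFEB and TFE3 by their brightest probes at 0.01. The direction with cordyceps thus depends on the scaling.

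The lysosomal genes all lay below the control on both arrays, although median scaling placed the cathepsins above it with cordyceps. Of all named genes measured on both arrays, 54.7% lay below 0 with cordycepin and 61.4% with cordyceps, with medians of -0.05 and -0.11. With cordyceps the cathepsin median minus that of all named genes was -0.08. CTSD, an aspartic protease, gave a signal of 7828 in control cells, 4128 with cordycepin and 6992 with cordyceps, with log2 ratios of -0.71 and -0.16. CTSL, a cysteine protease, gave 38317, 22869 and 33026, with log2 ratios of -0.53 and -0.21. CTSB, another cysteine protease, gave 5486, 4129 and 4816, with log2 ratios of -0.20 and -0.19. The 3 cathepsins lay below 0 with cordycepin under each of the 5 ways of scaling. With cordyceps they lay below 0 except under median scaling, where all 3 lay above it. All scalings but quantile normalization shift an array by at most a constant, so they are not separate checks. With cordycepin the cathepsin median minus that of all named genes was -0.48 in each of those, and -0.41 under quantile normalization. LAMP1, an abundant glycoprotein of the lysosomal membrane, gave 23397, 15647 and 16795, with log2 ratios of -0.37 and -0.48. LAMP2, which also serves chaperone-mediated autophagy through one isoform, gave 4768, 3742 and 3932, with log2 ratios of -0.14 and -0.28. Its other probes, on the transcripts of 2 further isoforms and both in the corner, gave -0.59 and -0.44 with cordycepin and -0.32 and -0.29 with cordyceps.

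**Figure D3:**
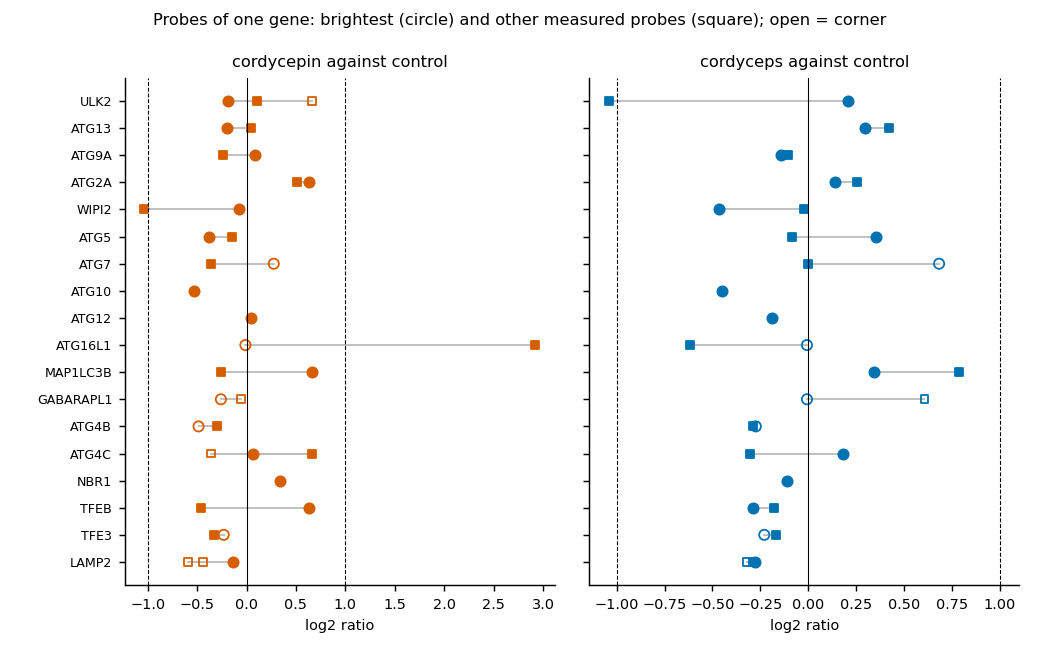
Log2 ratio of each probe detected on both arrays, for the genes with more than 1 probe, with cordycepin on the left and cordyceps on the right. Circles are the brightest probe, squares the others, open symbols lie in the corner, and dashed lines mark 2-fold. With cordycepin, the ATG16L1 probes span 2.93 log2 units and those of MAP1LC3B and TFEB lie on opposite sides of 0.

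Agreement between probes was the check available for a single ratio, and it does not cover differences between cultures. With cordycepin, 15 of the 38 genes had at least 2 probes measured on both arrays, and the brightest pair had the same sign in 8 of them, compared with 69.0% of 3675 named genes. With cordyceps it was 11 of 15, compared with 72.5% of 3418. The median distance between the highest and lowest probe of a gene was 0.45 log2 units with cordycepin and 0.44 with cordyceps, which is larger than most of the ratios given above. The reason for these distances was not tested.

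A wider list of 128 further autophagy and lysosome genes was read in the same way, and 127 of them had a probe. With cordycepin, 2 were at least 2-fold higher and 2 lower, beside 5.95% and 3.57% of all named genes, which made 1.63% and 1.63% of the listed genes detected on either array. With cordyceps, 2 were higher and 3 lower, beside 4.19% and 3.15% of all named genes. These calls concern 7 genes of different function. LAMP3, a lysosomal membrane protein whose gene is induced by the unfolded protein response, gave a signal of 51.4 in control cells, 213 with cordycepin and 307 with cordyceps, or 4.80-fold and 5.98-fold higher. These are log2 ratios of 2.26 and 2.58, and normexp background correction lowered them to 1.59 and 1.79. DDIT4 (REDD1), a stress-induced inhibitor of mTORC1, gave 25453, 8856 and 20365, with log2 ratios of -1.31 and -0.32. SESN2, a leucine sensor induced under amino acid and oxidative stress, gave 93.8, 105 and 275, with log2 ratios of 0.38 and 1.55. SESN1, a related p53-responsive gene, gave 134, 262 and 58.2, with log2 ratios of 1.18 and -1.21 from a probe in the corner. IGF2R, a receptor that sorts hydrolases to the lysosome, had log2 ratios of -1.05 and -0.22. EPG5, a tether for fusion with the lysosome, had -0.39 and -1.10, and CTSV, a cathepsin close to CTSL, had 0.23 and -1.12. LAMP3, DDIT4, SESN2, IGF2R, EPG5 and CTSV were each read from a probe outside the corner.

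Taken by function, the hydrolases other than the 3 cathepsins lay lower with cordycepin than the named genes in general. Of the 35 measured on both arrays, 27 lay below 0, with a median of -0.29, while 54.7% of all named genes lay below 0 with a median of -0.05. None reached 2-fold. ACP2, a lysosomal acid phosphatase, had the lowest value at 1.99-fold lower, and GLB1, the lysosomal β-galactosidase, had a log2 ratio of -0.74. GM2A, the activator protein for ganglioside breakdown, had the highest at 0.86. The list median minus that of all named genes was -0.24, and under quantile normalization it was -0.21. The V-ATPase subunits, which acidify the lysosome, had a median of -0.22 with 12 of 17 below 0. With cordyceps the same hydrolases had a median of -0.15, beside -0.11 over all named genes, and the V-ATPase subunits -0.09. Median scaling moved the median of all named genes to -0.32 with cordycepin and to 0.16 with cordyceps, and the hydrolase median with cordyceps became 0.12 and that with cordycepin -0.55. The other core autophagy genes had medians of -0.19 with cordycepin and 0.06 with cordyceps, and the other receptors -0.22 and 0.02.

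**Figure D4:**
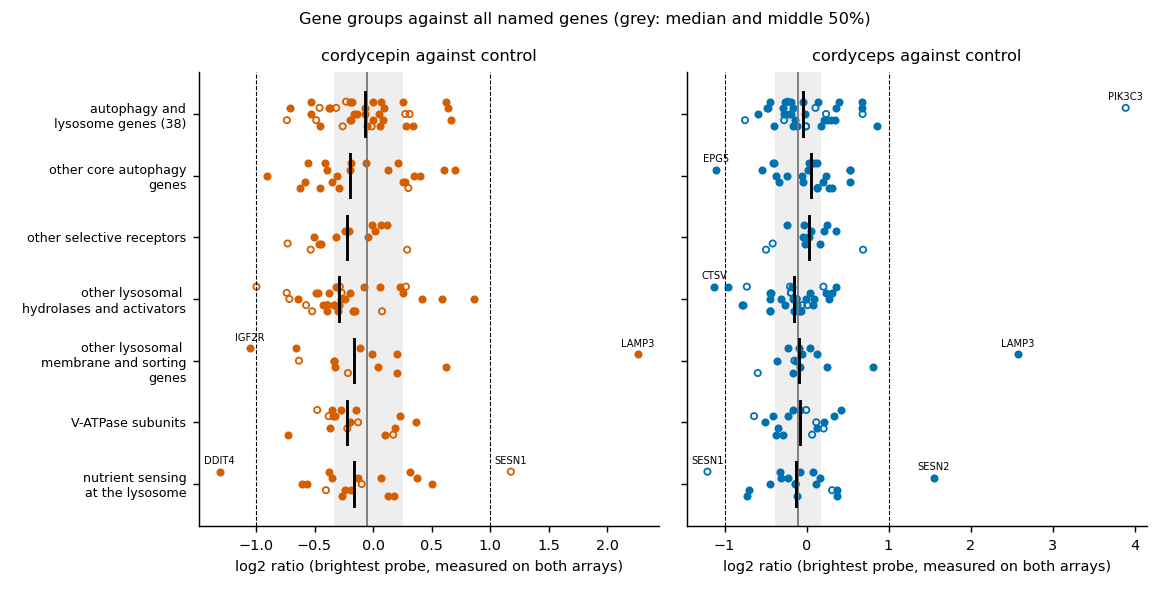
Log2 ratios against control of the 38 genes and of 6 further groups of autophagy and lysosome genes (1 point per gene measured on both arrays, black bar the group median, open circles in the corner) for cordycepin on the left and cordyceps on the right. The grey line and band are the median and the middle 50% of all named genes. The hydrolases have a median of -0.29 with cordycepin and -0.15 with cordyceps, and genes at 2-fold or more are named.

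The genes with a core E-box in their promoter were also set beside those without. Among the 38 genes and the wider list, 22 genes measured on both arrays had CACGTG in the window, and 100 did not. With cordycepin, 21 of the 22 lay below 0, with a median log2 ratio of -0.36, compared with 55 of the 100, with a median of -0.08. Members of the 22 included CTSD, LAMP1 and ATG3, shown above, and of the wider list CTSA, the protective protein of β-galactosidase, at -0.52, GAA, acid α-glucosidase, at -0.39, and ATP6V0D1, a V-ATPase subunit, at -0.48. IGF2R was the lowest, at -1.05. Other genes of the 22 lay nearer to 0, with CLN3 and BNIP3 at -0.01, CD63 at -0.11 and NEU1 at -0.16. These values are within the SD of 0.37 of a single probe, so their sign is weakly measured. The same holds for others of the 22, among them LAMP1 at -0.366, ATP6V1G1 at -0.35, ATG3 at -0.31 and LAMTOR4 at -0.24. NRBF2, a subunit of the PI3-kinase complex, was the gene above 0, at 0.27. Over all named genes with a promoter sequence, 57.6% of the 1130 with the E-box lay below 0, with a median of -0.08, and 55.7% of the 10249 without, with a median of -0.06. Under quantile normalization 19 of the 22 lay below 0, with a median of -0.25, and 52 of the 100, with a median of -0.02. Median scaling left 21 of the 22 below 0 and raised the count without the E-box to 78 of 100, and without scaling that count was 73. With cordyceps, 16 of the 22 and 55 of the 100 lay below 0, and the medians with and without the E-box were -0.07 and -0.07. Over all named genes, 56.2% with the E-box and 62.0% without lay below 0 with cordyceps. Under median scaling it was 6 of the 22 and 26 of the 100, and under quantile normalization 11 of the 22 and 49 of the 100. Most of the 22 are genes of the lysosome, while many of the 100 are autophagy genes. The E-box and the role of a gene thus overlap in part, and some roles hold genes of both kinds. With cordycepin, V-ATPase subunits with the E-box ran from -0.48 to -0.19, and those without from -0.72 to 0.37. The hydrolases of the wider list ran from -0.52 to -0.16 with the E-box and from -0.996 to 0.86 without. The cause of the difference between genes with and without the E-box was not tested. The counts above are over genes of single arrays, and genes are not replicates.

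**Figure D5:**
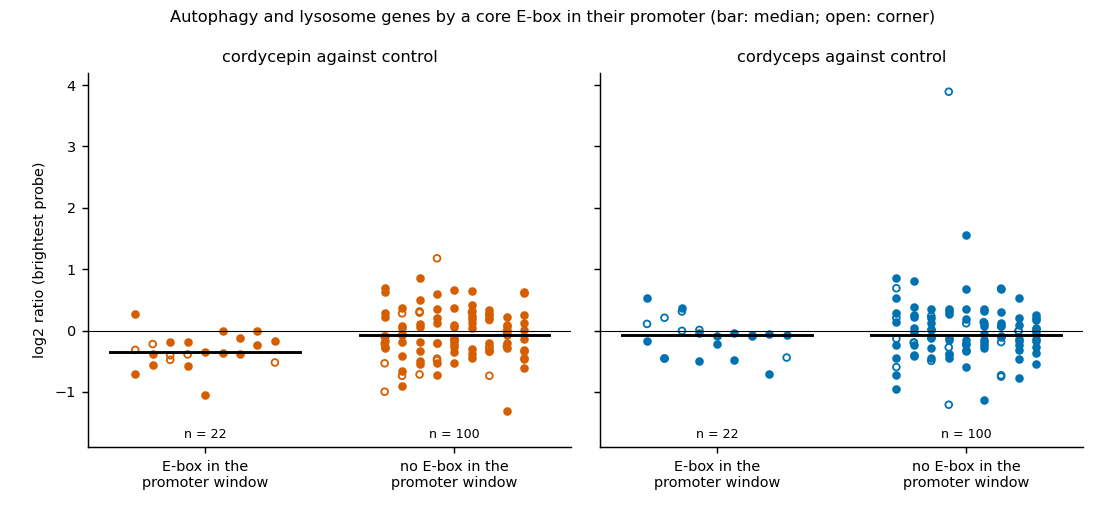
Log2 ratio against control (vertical axis, brightest probe) of autophagy and lysosome genes with and without a core E-box in the promoter window, for cordycepin on the left and cordyceps on the right. Each point is a gene measured on both arrays, bars are medians and open circles lie in the corner. With cordycepin, 21 of 22 genes with the E-box lie below 0, and 55 of 100 without it do.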

How the data were processed

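The authors deposited the scanner output of 3 single-colour arrays, 1 per condition; per the file headers, the intensity values were background-subtracted within each array by Agilent Feature Extraction 11.5.1.1 and not scaled between arrays. The deposited value table holds the same intensity values, 1 per probe. Quality marks from the scanner software (0 or 1, other) were used as deposited. The methods name GeneSpring for normalization.

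From these files, control spots and outlier spots were left out, log2 signals of a probe's spots were averaged, and each array's 75th percentile over 58191 probes was subtracted. A probe counted as detected if 50% or more of its spots carried the mark for well above background. Probes were named through the RefSeq accession (31097 probes, 22435 genes). Calls were made at 2-fold, as a bound where 1 array detected the probe, taking for the dim array the larger of that probe's signal and the lowest signal among detected probes. No test was run, as each group has 1 array, and no replicate error exists; the number of arrays limits the precision.

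The genes, lists, motifs and alternatives were chosen with earlier results of these data known. Named by rule were genes past 1.5-fold, the ATG8 genes, SQSTM1, TFEB, TFE3, cathepsins and LAMPs, and other pathway genes past 2-fold; further genes were named after their values were seen. The calling code was run on simulated data with noise below the SD per probe given above and changes well past 2-fold. That run checks the code and cannot show how reliable calls near 2-fold are. Python 3.11.15, numpy 2.4.6, pandas 2.3.3, and, for normexp, limma 3.58.1 in R 4.3.3 were used. Alternatives were other scalings, background correction, detection, outlier spots, the value table, other thresholds, the median over probes and leaving out the corner. Some items of the lists are not reported here.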

Additional observations from a re-analysis of the deposited data

How the results depend on the processing

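No paired analysis was possible because each group has 1 array, and for the same reason no array could be left out. Among the 38 genes, against 0 higher and 0 lower with cordycepin, median scaling gave 2 lower (GABARAP and ATG14), quantile normalization 1 lower (ATG14), the median over a gene's probes and leaving out the corner 1 higher each (ATG16L1, through its other probe), and the 1.5-fold threshold 3 higher and 3 lower. For cordyceps there was 1 higher and 0 lower; 2 were higher with median scaling (PIK3C3 and SQSTM1), and leaving out the corner gave 0 higher, the median over probes 1 lower (ULK2), and the 1.5-fold threshold 5 higher and 2 lower. The median log2 ratio of the 38 genes ran from -0.34 to -0.01 with cordycepin and from -0.16 to 0.23 with cordyceps, where its sign depends on the scaling.

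For the wider list, against 2 higher and 2 lower with cordycepin, 1 was higher with median scaling, no scaling, normexp, the 3-fold threshold and without the corner, and 7 at 1.5-fold; 6 were lower with median scaling, 4 with quantile normalization, 5 with no scaling, 1 with normexp, 15 at 1.5-fold and 0 at 3-fold. With cordyceps, against 2 higher and 3 lower, 4 were higher at 1.5-fold and 1 at 3-fold; 0 were lower with median scaling, with normexp and at 3-fold, 6 without a detection filter, 11 at 1.5-fold and 1 without the corner. A threshold, filter or scaling moves such counts by how it is built. The cause of the lower counts with normexp was not tested. The log2 ratio of LAMP3 ran from 1.59 to 2.31 with cordycepin and from 1.79 to 2.85 with cordyceps, the lowest with normexp. Dim probes such as ATG14, at a signal of 42.7 in control cells, are limited by the background.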
